A study of Mus musculus with 171 samples.

Results

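The genes described here belong to the mouse ion channel and neurotransmitter receptor families. They were chosen by gene symbol, as all genes with a probe whose symbol starts as those of the voltage-gated and other potassium channels, the voltage-gated sodium and calcium channels, the chloride channels, the transient receptor potential (TRP) channels, or the GABA-A, ionotropic glutamate, glycine, nicotinic and serotonin receptors do. The rule found 32 of the 5755 named genes of the arrays, on 38 of 8734 probes. Of these, 28 are channel or receptor subunits, namely 6 potassium, 1 sodium, 7 calcium, 5 chloride and 4 TRP channel genes, 1 GABA-A receptor gene, 2 ionotropic glutamate receptor genes and 2 nicotinic receptor genes. The other 4 match by their letters. They are Grina, a membrane protein named for an association with NMDA receptors, and the serine proteases Htra2 and Htra3. The last is Trpc4ap, a protein named for its association with a TRP channel. No glycine receptor gene and no serotonin receptor gene was among the members. Values on nearly all arrays (166 to 171) were found for 30 genes, and these 30 were tested. Cacng4, a calcium channel gamma subunit (-0.84 to 0.55), and Kcnn4, a calcium-activated potassium channel (-0.59 to 0.46), had values on only 16 arrays of intestinal tumours and 1 jejunal source and were not tested.

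The study profiled 88 mouse sources (organs, regions, stages and disease models) on 171 spotted 2-colour arrays, with 2 arrays for 83 sources, each against a universal mouse reference RNA. The groups used here are adult or unstaged tissues named by organ: 8 nervous regions (cerebellum, hippocampus, hypothalamus, nucleus accumbens, olfactory cortex, striatum, spinal cord and dorsal root ganglion), skeletal muscle, heart atrium, heart ventricle, olfactory epithelium, nasal respiratory mucosa and further organs. Staged tissues compared are brain at E18.5, whole brain at P2 and the heart at E14.5, where E and P count days of gestation and days after birth. Labels hold wt for the E18.5 brain and the E14.5 heart and WT for the second proximal jejunum source. Other stages and states are named for their levels only. They include kidney at E18.5 and after folic acid injury, bladder at P1, lung at P24, liver at E14 and liver after surgery. Also included are ileum after bowel or sham resection, stimulated lymph node, synovium with acute or chronic arthritis, and intestinal tumours. Lactating and involuting mammary gland and hair in catagen are further ones. The hyperdynamic heart is labelled as transgenic and has a control heart of its own. The names of both carry the letters Mek or mek, and the labels used here give neither the transgene in words nor its promoter. Spleen is labelled C57 and the kidney with folic acid injury FVB/N. For the other groups used, strain is not given, and pooling and exact adult age are given for none. Nothing says that both arrays of a source come from separate animals. In the 9 comparisons of arrays the p-values therefore describe array-to-array spread only, part of which may be technical. In the 2 comparisons over source means (nervous tissue and striated muscle) they describe the spread between sources. The number of arrays and sources limits the precision.

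Ion channels and ligand-gated receptors are membrane proteins that let ions cross on a signal: a change in voltage, a bound transmitter, calcium, heat or stretch. Most are assembled from several subunits, in which a pore-forming subunit sets the ion and auxiliary subunits set trafficking and gating. Nerve and muscle cells use them for action potentials, synaptic transmission and the coupling of excitation to contraction, and epithelia use them to move salt and water. In bulk tissue, fewer cells of a type and less RNA per cell cannot be told apart.

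A level below is the log ratio of a probe, tissue against reference, averaged over the arrays of a source, and a difference is one level minus another. The sources used here give neither the log base nor the direction. The values were read as likely tissue over reference, because the marker lists named next were high in their own tissues. Turning the sign would exchange higher and lower throughout. They were also taken as likely log2, which the markers do not bear on and which was not checked. Of 14535 pairs of arrays, 356 correlated below -0.3 over all probes. The submitters had centred each probe (8709 of 8734 probe medians lie within 0.001 of 0), so 0 marks the middle of each probe's own values, and no gene's level is set against another gene's. The arrays were not brought to a common median. Medians were as low as -0.92 in liver after surgery, and -0.78, -0.45, -0.55 and -0.33 on both arrays of the control and of the transgenic hyperdynamic heart.

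Tissue labels were set against marker genes. The 7 measured neuron markers were highest in hippocampus (mean level 3.63) and the 3 myelin markers in spinal cord (3.67). The 4 astrocyte markers were highest in hippocampus (1.81), the sensory neuron marker Prph in dorsal root ganglion (3.20) and the olfactory neuron marker Omp in olfactory epithelium (1.52). The 4 skeletal muscle markers peaked in skeletal muscle (4.01), and the 6 heart muscle markers in the heart at E14.5 (2.41), the atrium (2.28) and the transgenic heart (2.07), while the ventricle stood at 0.91 and the control heart at 0.79. The smooth muscle marker Cnn1 was highest in bladder at P1 (5.04), the 3 blood markers in blood mononuclear cells (6.61), the 2 endothelial markers in lung at P24 (1.40) and the 3 macrophage and microglia markers in involuting mammary gland (1.93). Markers of cerebellar and striatal neurons did not single out those regions: the 3 cerebellar ones were highest in stimulated lymph node (0.85, against 0.17 in cerebellum), and the 2 striatal ones in ileum after bowel resection (0.77, against 0.19 in striatum).

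**Figure D1:**
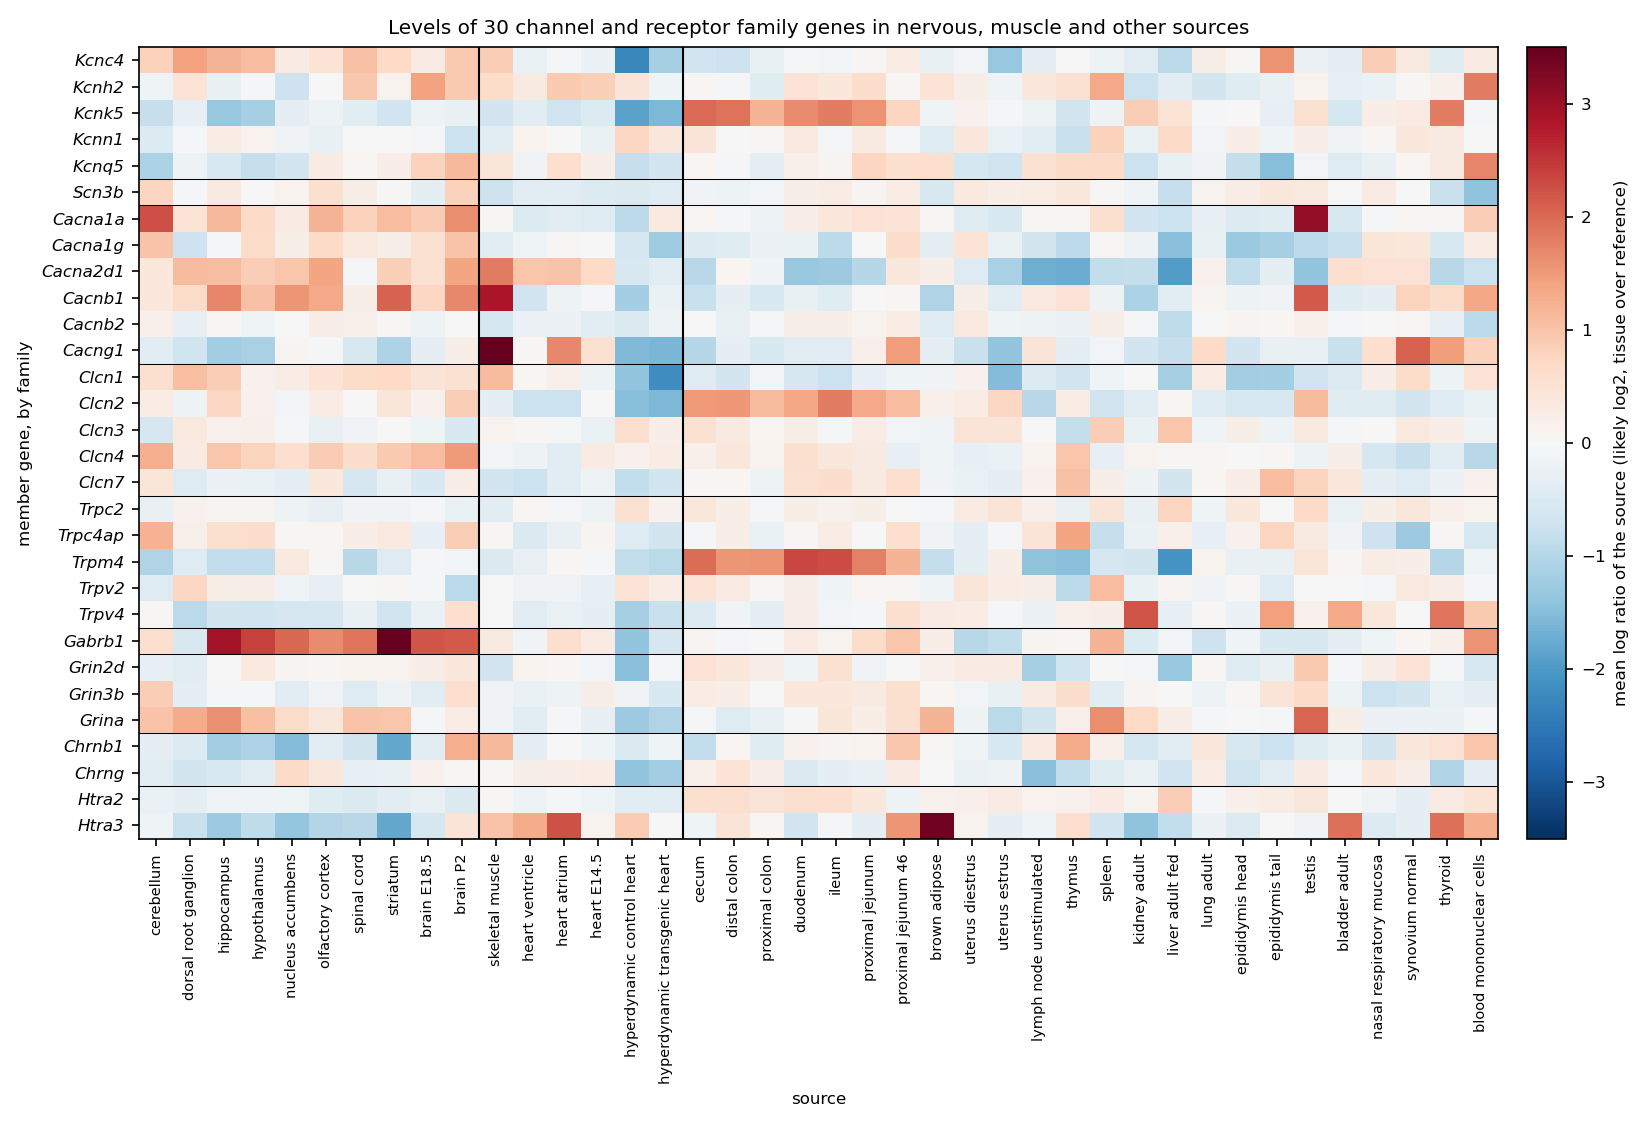
Mean log ratio (colour, likely log2, tissue over reference) of the 30 tested genes (rows, grouped by family) in 10 nervous sources, 6 muscle sources and 24 other sources (columns). Gabrb1 is high in most nervous sources, Cacnb1 and Cacng1 in skeletal muscle, and Trpm4, Clcn2 and Kcnk5 in the intestinal sources.

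Source accounted for most of the variance of the members. Between 51.3% (Kcnn1) and 94.9% (Trpm4) of a gene's variance lay between sources, with a median of 81.8%, and the standard deviation between arrays of a source was 0.14 to 0.51. The distance between the highest and the lowest source ran from 1.37 to 5.44. The highest source was nervous for 3 genes, skeletal muscle for 4, normal intestine for 2, ileum after sham resection for 1, an intestinal tumour for 4, testis for 3 and stimulated lymph node for 3. Liver sources were the lowest for 11 of the 30 genes and lactating mammary gland for 5. The arrays of these liver sources have low medians, except those of fetal liver at E14 (0.04 and -0.01), the lowest source for Kcnh2.

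Nervous tissue was compared with other organs over source means, 8 regions against 28 sources. These include 7 intestinal sources, heart atrium, ventricle and control heart, uterus in estrus and diestrus, and epididymis head and tail. The rest are skeletal muscle, brown adipose, unstimulated lymph node, thymus, spleen, kidney, liver, lung, testis, bladder, nasal respiratory mucosa, normal synovium, thyroid and blood mononuclear cells. Related sources entered as independent units, so the precision may be overstated. Genes for the GABA-A receptor, for voltage-gated calcium channels and for a potassium and 2 chloride channels were higher in nervous tissue, while a muscle-type nicotinic subunit, a background potassium channel and a TRP channel were lower. Of the 30 genes, 9 were higher and 5 lower at an adjusted p under 0.05 (limma, Benjamini-Hochberg over all 8638 probes tested). That is 30% and 16.7% of the members, against 9.03% and 9.4% of all probes. Among the 26 subunits proper, 8 were higher and 3 lower. The median difference was 0.01 over the 30 genes and -0.12 over all probes. Of all calls over all probes, 49.0% were higher ones, 59.9% after centring the array medians and 62.3% after quantile normalization. Leaving out 1 source at a time gave 11 to 15 called members. The letters AC and AF in the array titles were read as array lots, which no label states. With arrays of the AC lot alone 4 were called, and with those of the AF lot alone 14. Shares over all probes within a lot are not given here.

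Gabrb1, the beta1 subunit of the GABA-A receptor, the main inhibitory receptor of the brain, had the largest difference. Its level was 3.54 in striatum, 2.91 in hippocampus, 2.38 in hypothalamus, 2.01 in nucleus accumbens, 1.88 in spinal cord, 1.66 in olfactory cortex, 0.59 in cerebellum and -0.57 in dorsal root ganglion. In the 28 other sources it ran from -1.38 to 1.56, with a median of 0.03 and the highest value in blood mononuclear cells. So 6 of 8 nervous regions lay above every other organ, and the cerebellum and the ganglion lay among them. The mean difference was 1.80 ± 0.31 (SE, 8 against 28 sources, limma adjusted p = 4.1e-05), and 2.27 and 2.04 within the AC and AF lots of arrays. Both arrays were close in striatum (3.68 and 3.40) but wide apart in hippocampus (2.10 and 3.73) and hypothalamus (1.46 and 3.29), so the order of these 3 regions is not resolved.

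The calcium channel genes called in this comparison were all higher. Cacna2d1, an auxiliary alpha2-delta subunit and the target of gabapentin, ran from -0.06 (spinal cord) to 1.39 (olfactory cortex) in nervous regions and differed by 1.25 ± 0.33 (adjusted p = 0.0058). Cacnb1, a beta subunit also used in skeletal muscle, ran from 0.20 to 2.06 and differed by 1.09 ± 0.33 (adjusted p = 0.017). Without striatum its call was lost (0.96, adjusted p = 0.058). Its second probe, which correlated with the first at r = 0.10 over 171 arrays, differed by 0.12 ± 0.14 (adjusted p = 0.58). Cacna1a, the pore of P/Q-type channels that trigger transmitter release, ran from 0.30 to 2.25 and differed by 0.98 ± 0.28 (adjusted p = 0.0095), with testis (3.07) above every nervous region. Cacna1g, a low-threshold T-type pore, differed by 0.63 ± 0.21 (adjusted p = 0.032). That call was lost without cerebellum, hypothalamus, olfactory cortex or spinal cord (0.53 to 0.62, adjusted p up to 0.099). The remaining calcium channel genes tested, Cacnb2 (0.15 ± 0.13) and Cacng1 (-0.71 ± 0.39), did not pass.

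Kcnc4, a fast voltage-gated potassium channel, ran from 0.28 to 1.40 in nervous regions, highest in dorsal root ganglion, against a median of -0.13 in the other organs. Its difference was 1.02 ± 0.25 (adjusted p = 0.0029). Clcn4, an endosomal chloride/proton exchanger, ran from 0.30 to 1.26 and differed by 0.83 ± 0.16 (adjusted p = 0.00013). Clcn1, the chloride channel known from skeletal muscle, lay between 0.16 and 1.04 and differed by 0.91 ± 0.23 (adjusted p = 0.0032). Only skeletal muscle, at 1.10, was above its highest nervous region, the dorsal root ganglion. Grina differed by 0.92 ± 0.25 (adjusted p = 0.0067), and its second probe, which tracked the first at r = 0.96, by 0.89 ± 0.23 (adjusted p = 0.0044).

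Lower in nervous tissue were genes of other settings. Chrnb1, the beta subunit of the muscle acetylcholine receptor, ran from -1.80 (striatum) to -0.35 in nervous regions against a median of 0.03 elsewhere, a difference of -0.94 ± 0.23 (adjusted p = 0.0025). Htra3 differed by -1.40 ± 0.38 (adjusted p = 0.008) and Htra2 by -0.49 ± 0.12 (adjusted p = 0.0032). The second probe of Htra2 (r = -0.19 with the first over 170 arrays) differed by -0.06 ± 0.17. Kcnk5, a tandem-pore background potassium channel of epithelia, differed by -0.97 ± 0.34 (adjusted p = 0.04). Its call was lost without cerebellum, hippocampus, hypothalamus, striatum or proximal jejunum (-0.87 to -0.97, adjusted p up to 0.099). Trpv4, a channel gated by warmth and cell swelling, differed by -0.78 ± 0.26 (adjusted p = 0.031). That call was lost after centring the array medians (-0.69, adjusted p = 0.056), after quantile normalization, and without dorsal root ganglion, hippocampus, hypothalamus, nucleus accumbens or striatum (-0.72 to -0.77, adjusted p up to 0.068).

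Beside these differences, 6 of the 7 neuron markers, 2 of 3 myelin markers and 2 of 4 astrocyte markers were higher in nervous tissue, and the neuron markers' median difference was 3.79. Their part in the members' differences was not tested. Several genes best known from neurons did not differ beyond the spread: Scn3b, an auxiliary sodium channel subunit (0.34 ± 0.17, adjusted p = 0.17), Kcnq5, a slow M-type potassium channel (-0.35 ± 0.25), the NMDA receptor subunits Grin2d (0.10 ± 0.20) and Grin3b (-0.11 ± 0.15), and Kcnn1, a calcium-activated potassium channel (-0.14 ± 0.14).

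**Figure D2:**
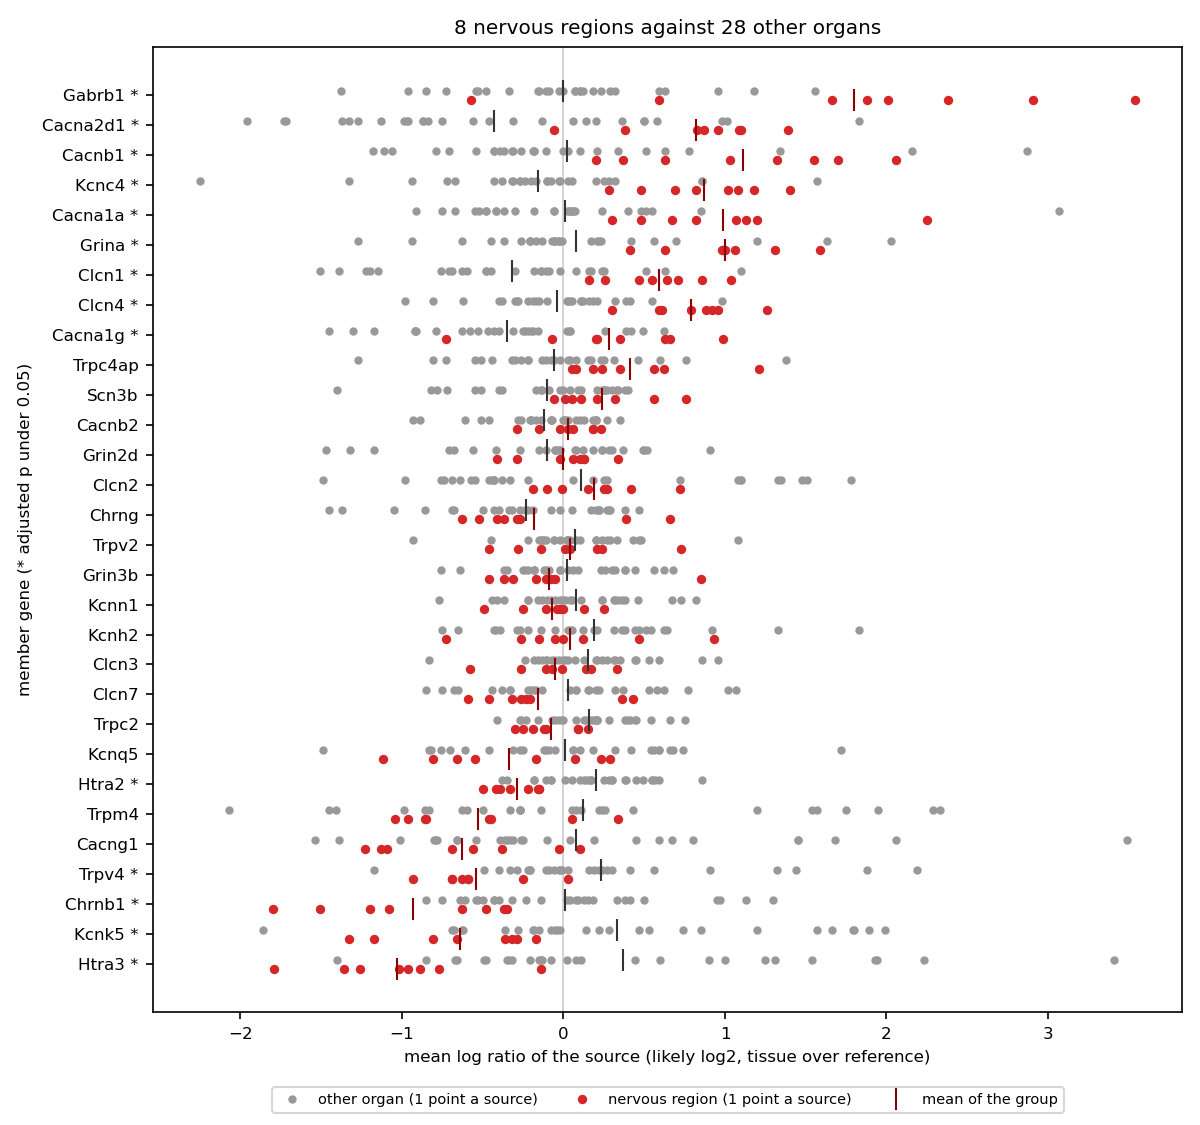
Source means (likely log2 ratio) of the 30 tested genes in 8 nervous regions (red) and 28 sources of other organs (grey), ordered by the difference. Group means are bars, and a star marks an adjusted p under 0.05. For Gabrb1 the 6 highest points are all nervous regions, and for the other called genes both groups overlap.

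Genes that work with these channels moved in part alongside. Of the 9 measured genes that anchor receptors and channels, 5 were higher in nervous tissue and none lower. They were Ank2 (2.79 ± 0.23) and Ank3 (1.66 ± 0.26), the ankyrins that hold channels in place, Gabarapl1 (2.15 ± 0.37), a relative of the GABA-A receptor-associated protein, Dlg4 (1.54 ± 0.19), the scaffold of excitatory synapses, and Gphn (0.53 ± 0.16), gephyrin, the scaffold of inhibitory synapses. The median difference of the list was 0.53. Of the 7 genes for making, moving and breaking down transmitters, 1 was higher and none lower: Gad1, which makes GABA, at 2.24 ± 0.30 (limma adjusted p = 3.6e-07). The only metabotropic receptor gene measured, Gabbr1 of the GABA-B receptor, was higher (0.78 ± 0.22). Of 10 pump and cotransporter genes, the plasma membrane calcium pump Atp2b1 was higher (1.36 ± 0.37) and the potassium-chloride cotransporter Slc12a7 lower (-0.50 ± 0.16). Of 7 other channel genes, 1 was higher, the intracellular chloride channel protein Clic1 (0.76 ± 0.22).

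The cerebellum, a region of densely packed granule cells and large Purkinje neurons, was compared with the 5 forebrain regions (2 against 10 arrays). Of the 30 genes, 8 were higher and 5 lower (26.7% and 16.7%), against 19.9% and 12.9% of all probes. The medians of the cerebellar arrays were low (-0.19 and -0.24), and centring the array medians moved the median of all probes by 0.11. The differences below are therefore after centring, where 10 members were higher and 5 lower, against 24.7% and 6.67% of all probes. Higher ones made up 60.7% of all calls as deposited and 78.8% after centring. All cerebellar arrays are of the AC lot.

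Cacna1a stood at 2.27 and 2.23 on the cerebellar arrays and between 0.21 and 1.78 in the forebrain, with no overlap. The difference was 1.48 ± 0.22 (limma adjusted p = 4.6e-08). Grin3b, an NMDA receptor subunit, stood at 0.90 and 0.81 against -0.47 to 0.01 (1.12 ± 0.14, adjusted p = 2.7e-10), again without overlap. Scn3b stood at 0.74 and 0.78 against -0.03 to 0.56 (0.66 ± 0.11, adjusted p = 1.4e-06), but its call was lost under quantile normalization (adjusted p = 0.052). Trpc4ap stood at 1.2 and 1.21 against -0.06 to 0.67 (0.98 ± 0.14, adjusted p = 2.6e-08).

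In the opposite direction, Gabrb1 stood at 0.74 and 0.44 in cerebellum against 1.46 to 3.73 in the forebrain, a difference of -1.80 ± 0.30 (adjusted p = 7.8e-07). Cacnb1 stood at 0.46 and 0.27 against 0.79 to 2.13 (-1.06 ± 0.23, adjusted p = 0.00013), and its second probe differed by -0.47 ± 0.12 as deposited. Trpm4, a calcium-activated cation channel, stood at -1.05 and -1.04 against -1.02 to 0.36 (-0.58 ± 0.17, adjusted p = 0.005). With no cerebellar array left out, Htra3 (1.23), Chrnb1 (0.95), Trpv4 (0.77) and Clcn7 (0.67) were also higher and Clcn3 (-0.47) and Kcnq5 (-0.72) lower. Without the first cerebellar array, however, the deposited calls of Htra3, Chrnb1, Trpv4, Clcn7 and Clcn3 were lost (0.95, 0.62, 0.64, 0.48 and -0.51, adjusted p 0.064 to 0.23), and the number of called members was 8. Without the second, that of Kcnq5 was lost (-0.41, adjusted p = 0.49). Of the neuron markers 4 of 7 were lower in cerebellum as deposited, and the part of this in the members' differences was not tested.

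Of the partner genes, the endoplasmic calcium pump Atp2a2 (1.56 after centring) and the calcium release channel Itpr3 (1.33) were the largest higher ones in cerebellum. Among the 10 pump and cotransporter genes 1 was higher and 2 lower, among the 7 other channels 2 higher and 0 lower, and among the 9 anchoring genes 2 each way. Among the 7 transmitter genes 0 were higher and 3 lower: Ddc (-1.2), Slc1a2 (-0.51) and Slc32a1 (-0.36).

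Striatum and nucleus accumbens, where most neurons release GABA, were set against hippocampus and olfactory cortex (4 against 4 arrays). No member was called higher and 2 lower (6.7%), against 4.55% and 4.63% of all probes, while 5 members had an unadjusted limma p under 0.05. Centring the array medians took the share of higher ones among all calls from 49.6% to 34.3%. Chrnb1 stood at -1.76, -1.26, -1.58 and -2.02 in the striatal regions and at -1.27, -1.13, -0.27 and -0.47 in the others, a difference of -0.87 ± 0.24 (limma adjusted p = 0.01). Without the second hippocampal, the first accumbens or the second striatal array the call was lost (-0.75 to -0.84, adjusted p up to 0.077). Scn3b stood between -0.03 and 0.17 against 0.25 to 0.56, without overlap (-0.35 ± 0.10, adjusted p = 0.017). Its call was lost without the second hippocampal, the second accumbens, either olfactory cortex or the first striatal array (-0.31 to -0.36, adjusted p up to 0.11). The number of called members was 0 without the second hippocampal array, 4 without the first and 1 without any of the other 6. Gabrb1, the highest member in striatum, differed by 0.49 (adjusted p = 0.30). Beside this, 2 of the 4 skeletal muscle markers and the smooth muscle marker were higher and 2 of 4 astrocyte markers lower in the striatal regions, and their part was not tested. Among the partner genes, Homer2, a scaffold of metabotropic glutamate receptors, was lower (-1.57 ± 0.19), as was Glul (-0.54 ± 0.14), an astrocyte marker too. The calcium pump Atp2a1 (1.56 ± 0.23), which is also 1 of the 4 muscle markers, and P2rx3 (0.36 ± 0.10) were higher.

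Dorsal root ganglia hold the cell bodies of sensory neurons, and the spinal cord receives their axons. Among the members, 2 were higher in ganglion and 4 lower (2 against 2 arrays; 6.7% and 13.3%), against 8.8% and 9.63% of all probes. Gabrb1 was the member whose call held without any one of the 4 arrays: -0.35 and -0.78 in ganglion against 2.15 and 1.61 in cord, a difference of -2.45 ± 0.40 (limma adjusted p = 1.8e-06). In a fit to these 4 arrays alone no member was called, Gabrb1 included. Cacna2d1 stood at 1.13 and 1.07 against -0.58 and 0.47 (1.16 ± 0.38, adjusted p = 0.022). Trpv2, a TRP channel of large sensory neurons, stood at 1.12 and 0.34 against -0.16 and 0.17 (0.72 ± 0.27, adjusted p = 0.049). Both were called without overlap of the arrays, and both calls ended without the first ganglion array (1.13 and 0.34, adjusted p = 0.13 and 0.65) or the first cord array (0.64 and 0.56, adjusted p = 0.40 and 0.28). The same arrays ended the calls of Trpv4 (-0.68 ± 0.24, also lost after centring, adjusted p = 0.059) and Cacnb2 (-0.47 ± 0.16), leaving -0.34 to -0.56 and -0.22 to -0.38. Cacna1g (-1.08 ± 0.38) was not called without either cord array (-1.23 and -0.94) or the first ganglion array, where -0.21 remained. Without either of these first arrays 1 member was called. Under quantile normalization 1 member was called as well, against 609 higher and 390 lower of all 8638 probes. Higher ones made up 61.0% of all calls there against 47.7% as deposited.

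The sensory neuron marker Prph was 2.82 higher in ganglion, 3 of 7 neuron markers were higher and 1 lower, 2 of 3 myelin markers were lower, and 3 of 4 astrocyte markers were lower and 1 higher. Their part in the members' differences was not tested. Of the 7 transmitter genes, 5 were lower in ganglion and 0 higher, with a median of -0.94, among them Gad1 (-1.92 ± 0.32) and the glycine transporter Slc6a9 (-1.89 ± 0.18). P2rx3, the ATP-gated channel of pain-sensing neurons, was higher (0.82 ± 0.14, limma adjusted p = 3.6e-06), while Itpr2, Clic1 and Clic4 were lower, out of 7 other channel genes. The anchoring genes split, with Homer2 (1.43 ± 0.27) and Gabarapl1 (0.81 ± 0.20) higher and Dlg1 (-1.43 ± 0.32) lower of 9. Of 10 pump genes 1 was higher (Atp2b1, 0.84) and 1 lower (Atp2a2, -0.87).

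**Figure D3:**
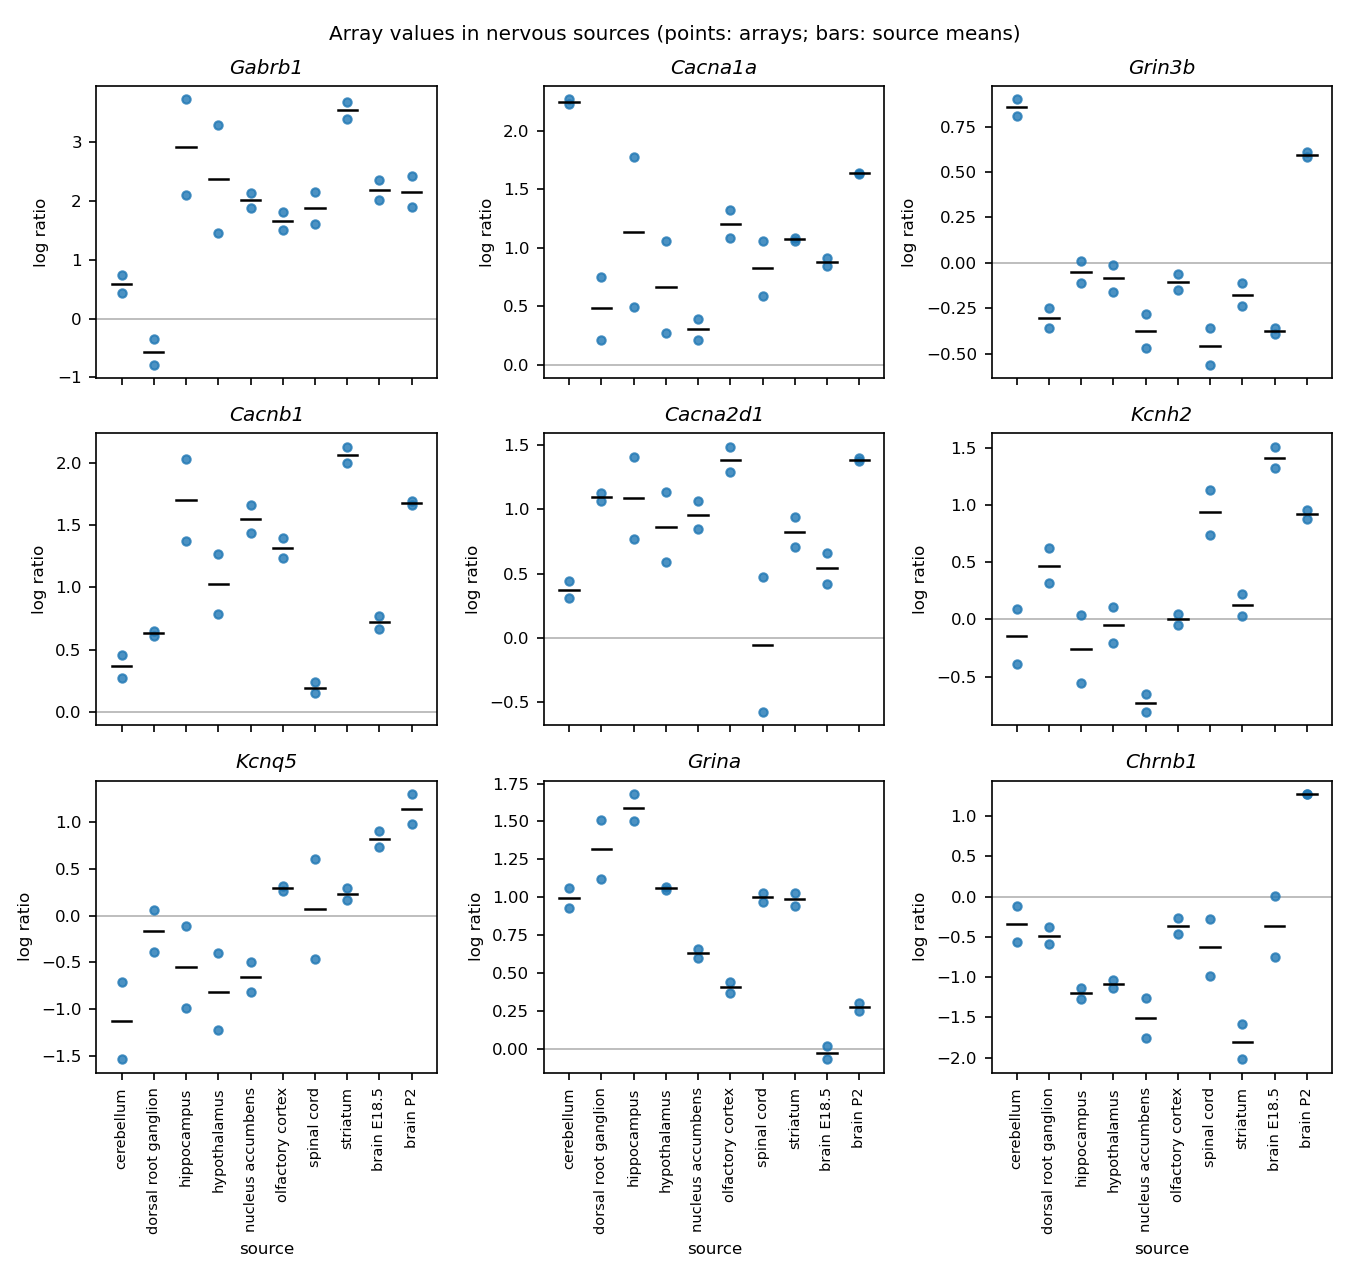
Log ratio (likely log2) of 9 members on each array (points) of 10 nervous sources, with source means as bars. Cacna1a and Grin3b are highest in cerebellum, and Gabrb1 is lowest in dorsal root ganglion and cerebellum. Both perinatal brain sources are high for Kcnh2 and Kcnq5 and low for Grina, and spinal cord is high for Kcnh2 too (0.93).

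Perinatal brain (E18.5 and P2, 4 arrays) was compared with the 6 adult brain regions (12 arrays), across the period in which synapses form and myelin is laid down. Of the 30 genes, 8 were higher and 2 lower (26.7% and 6.7%), against 38.4% and 11.4% of all probes. Centring the array medians moved the median of all probes by -0.22 and turned the balance: 6 members were then higher and 9 lower, against 25.6% and 30.8% of all probes, and the share of higher ones among all calls fell to 45.4% from 77.1%. The differences below are after centring, and the array values are as deposited.

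Kcnh2, the ERG potassium channel that helps end action potentials, stood at 1.32 and 1.51 at E18.5 and 0.88 and 0.96 at P2. These lay above all 12 adult brain arrays (-0.81 to 0.22). The difference was 1.13 ± 0.17 (limma adjusted p = 3.3e-08). Spinal cord, which is not among the regions compared here, had a mean Kcnh2 level of 0.93, near the P2 values. Kcnq5 stood at 0.73, 0.91, 0.98 and 1.30 against -1.54 to 0.32, also without overlap (1.2 ± 0.20, adjusted p = 5.6e-07). Within the AC and AF lots the deposited differences were 1.14 and 1.55 for Kcnh2 and 1.68 and 1.00 for Kcnq5. Grina ran the other way, at 0.02 and -0.07 at E18.5 and 0.30 and 0.25 at P2, below all adult arrays (0.37 to 1.68), with a difference of -1.04 ± 0.10 (adjusted p = 2.9e-15).

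Some members differed between the perinatal sources themselves. Chrnb1 was 1.27 on both P2 arrays but 0.01 and -0.75 at E18.5, where the adult arrays run from -2.02 to -0.12 (1.28 ± 0.19 over both, adjusted p = 4.4e-08). Trpc4ap and Clcn7 had higher means at P2 (0.87 and 0.22) than at E18.5 (-0.29 and -0.54). Grin3b, Scn3b and Cacna1a were likewise higher at P2 (0.58 to 0.61, 0.79 to 0.81, and 1.63 to 1.64) than at E18.5 (-0.39 to -0.36, -0.34 to -0.33, and 0.84 to 0.91), and Trpv2 was lower (-0.99 and -0.87 against -0.08 and 0.02). The difference between both stages was not tested. The P2 arrays are of the AC lot and the E18.5 arrays of the AF lot, so lot and stage cannot be told apart here. Trpv4 (0.49 ± 0.14), Htra3 (0.78 ± 0.22) and Kcnk5 (0.30 ± 0.12) were also higher after centring. The calls of Trpm4 (0.19) and Clcn4 (0.17) as higher were not kept by centring. They also ended without 1 of the perinatal arrays: the first E18.5 array for Trpm4 (0.30, adjusted p = 0.12), and either P2 array or the second E18.5 array for Clcn4 (0.34 to 0.39, adjusted p up to 0.089).

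Lower after centring, beside Grina, were Trpv2 (-0.63 ± 0.16), Cacnb2 (-0.37), Trpc4ap (-0.41), Scn3b (-0.28), Clcn3 (-0.44), Kcnn1 (-0.53), Htra2 (-0.34) and Clcn7 (-0.33). Trpc4ap, Scn3b and Clcn7 took opposite directions in the perinatal sources as deposited: against adult arrays of the same lot, P2 was higher (0.41, 0.51 and 0.33) and E18.5 lower (-0.65, -0.56 and -0.49). Htra2 was -0.34 at P2 and 0.11 at E18.5 in the same terms, the latter not called (adjusted p = 0.58). For Htra2 the second probe went the other way (0.37 ± 0.12 as deposited, adjusted p = 0.0074). Of these only Grina and Trpv2 were called as deposited, and the call of Trpv2 ended without the first P2 or the first E18.5 array (-0.39, adjusted p = 0.082). Gabrb1, at 2.01 to 2.36 and 1.89 to 2.42 in the perinatal sources, lay inside the adult range of 0.44 to 3.73. All 3 myelin markers and 3 of 4 astrocyte markers were lower in perinatal brain, and 2 of 4 skeletal muscle and 3 of 6 heart muscle markers higher, and their part was not tested.

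Partner genes were called in both directions. Among anchoring genes 3 of 9 were higher and 5 lower as deposited, with Lin7c (0.96 after centring) at one end and Gabarapl1 (-1.29) and Dlg1 (-1.19) at the other. Among transmitter genes 0 of 7 were higher and 3 lower: Glul, the glutamine synthetase of astrocytes (-1.55), Gad1 (-0.84) and the glutamate transporter Slc1a2 (-0.82). Glul and Slc1a2 are also 2 of the 4 astrocyte markers. Pump genes went 2 each way of 10, with Atp2b1 (-1.41) and Atp2a2 (-1.33) lower and Slc8a1 (0.85) and Atp2a1 (0.53) higher. Other channels also went 2 each way of 7, and Gabbr1 was higher (0.50).

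Striated muscle, that is skeletal muscle, atrium, ventricle and the hyperdynamic control heart, was compared with 24 non-nervous sources over source means. Related sources again entered as independent units. Of the 30 genes, 1 was higher and 1 lower (3.3% each), against 1.75% and 2.42% of all probes, with 8 members at an unadjusted limma p under 0.05. Centring moved the median of all probes by 0.24 and left 1 member higher and none lower, against 2.5% and 0.486% of all probes. Higher ones made up 83.7% of all calls then and 41.9% as deposited. Cacna2d1, which is part of the calcium channel that starts contraction, had levels of 1.83 in skeletal muscle, 1.01 in atrium, 0.98 in ventricle and -0.56 in the control heart, against -1.96 to 0.58 elsewhere. The difference after centring was 1.69 ± 0.38 (adjusted p = 0.0088). As deposited it was 1.45 ± 0.41 (adjusted p = 0.04) and was lost without atrium, ventricle, skeletal muscle or ileum (1.39, 1.40, 1.11 and 1.42, adjusted p up to 0.18). Clcn7, the lysosomal chloride/proton exchanger, was called lower as deposited (-0.82 ± 0.23, adjusted p = 0.042) but not after centring (-0.58, adjusted p = 0.24), and the deposited call was lost when any 1 of 12 sources was left out. The number of called members was 0 without atrium, ventricle, skeletal muscle or ileum and 1 without the control heart, distal colon, duodenum, proximal jejunum, the second proximal jejunum source, lung or epididymis head. Of the partner genes, Atp2a2, the calcium pump of the heart and slow muscle (4.33 after centring), the sodium-calcium exchanger Slc8a1 (1.21) and Ank2 (1.43) were higher.

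Among the members called between skeletal muscle and ventricle, the calcium channel subunits Cacnb1 and Cacng1 were the furthest apart. In all, 6 of the 30 were higher in skeletal muscle and 1 lower (20% and 3.3%, 2 against 2 arrays), against 9.74% and 5.21% of all probes. Quantile normalization gave 6 higher and 4 lower members, against 896 and 928 of all 8638 probes. It took the share of higher ones among all calls to 49.1% from 65.1%. Cacnb1, the beta subunit of the skeletal dihydropyridine receptor, stood at 2.80 and 2.94 in skeletal muscle and at -0.46 and -0.96 in ventricle. The difference of 3.58 ± 0.30 (limma adjusted p = 1.3e-17) was the largest of any member in any of the 11 comparisons. Its second probe differed by 0.85 ± 0.16 (adjusted p = 3.5e-05), in the same direction. Cacng1, the gamma subunit of the same receptor, stood at 3.43 and 3.56 against -0.00 and 0.08 (3.45 ± 0.50, adjusted p = 6e-08). Both calls held without any one of the 4 arrays.

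Chrnb1 stood at 1.05 and 1.21 in skeletal muscle against 0.00 and -0.63 in ventricle (1.45 ± 0.33, adjusted p = 0.0009). Without the second ventricle array its call was lost (1.13, adjusted p = 0.095). Clcn1, which stabilises the resting potential of muscle fibres and whose loss causes myotonia, stood at 0.88 and 1.31 against -0.17 and 0.33 (1.01 ± 0.32, adjusted p = 0.02). That call ended without the first ventricle or the second muscle array (0.77 and 0.80, adjusted p = 0.16 and 0.36). Kcnc4 stood at 0.46 and 1.26 against -0.34 and -0.13 (1.09 ± 0.33), and was lost without either ventricle array or the second muscle array (0.99, 1.2 and 0.70). Trpc4ap (0.55 ± 0.17) was lost without the second ventricle or the second muscle array (0.31 and 0.43). Grin2d was the member called lower (-0.80 ± 0.28), on arrays at 0.05 and -1.40 against -0.03 and 0.27. It rested on the second muscle array, without which the difference was -0.07, and was also lost without the second ventricle array (-0.65). Without either of these second arrays 3 members were called.

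Cacna2d1, at 1.60 and 2.05 against 1.22 and 0.73, did not pass (0.85 ± 0.38, adjusted p = 0.12). Chrng, the gamma subunit of the fetal muscle acetylcholine receptor, was -0.02 and 0.13 in skeletal muscle against 0.30 and 0.09 (-0.14 ± 0.34). Of the partner genes, Ryr1, the calcium release channel that the dihydropyridine receptor opens in skeletal muscle, was higher (2.52 ± 0.36, adjusted p = 5e-08), with Ank3 (1.03 ± 0.25) and Gphn (0.83 ± 0.29). Atp2a2 (-2.99 ± 0.20), Clic4 (-1.27 ± 0.24), Glul (-0.83 ± 0.19) and Gabarapl1 (-0.56 ± 0.20) were lower. Beside this, 3 of 4 skeletal muscle markers were higher (median of the 4, 3.83) and 2 of 6 heart muscle markers lower and 1 higher, and their part in the members' differences was not tested. The partner counts are 1 higher and 1 lower of 7 other channels, 0 and 1 of 10 pumps, 2 and 1 of 9 anchoring genes and 0 and 1 of 7 transmitter genes.

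Cacng1 was also high outside muscle, at 2.28, 2.16 and 2.06 in synovium with chronic arthritis, with acute arthritis and without disease. The 4 skeletal muscle markers were high in the same samples, at mean levels of 2.76, 2.13 and 2.32, against 4.01 in skeletal muscle itself. In catagen hair these markers were as high (2.78), and Cacng1 was 0.83. Their part in the level of Cacng1 was not tested. Cacnb1 was 0.69 and 0.88 in normal synovium but 2.20 and 2.11 in testis, where the muscle markers stood at -1.51.

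**Figure D4:**
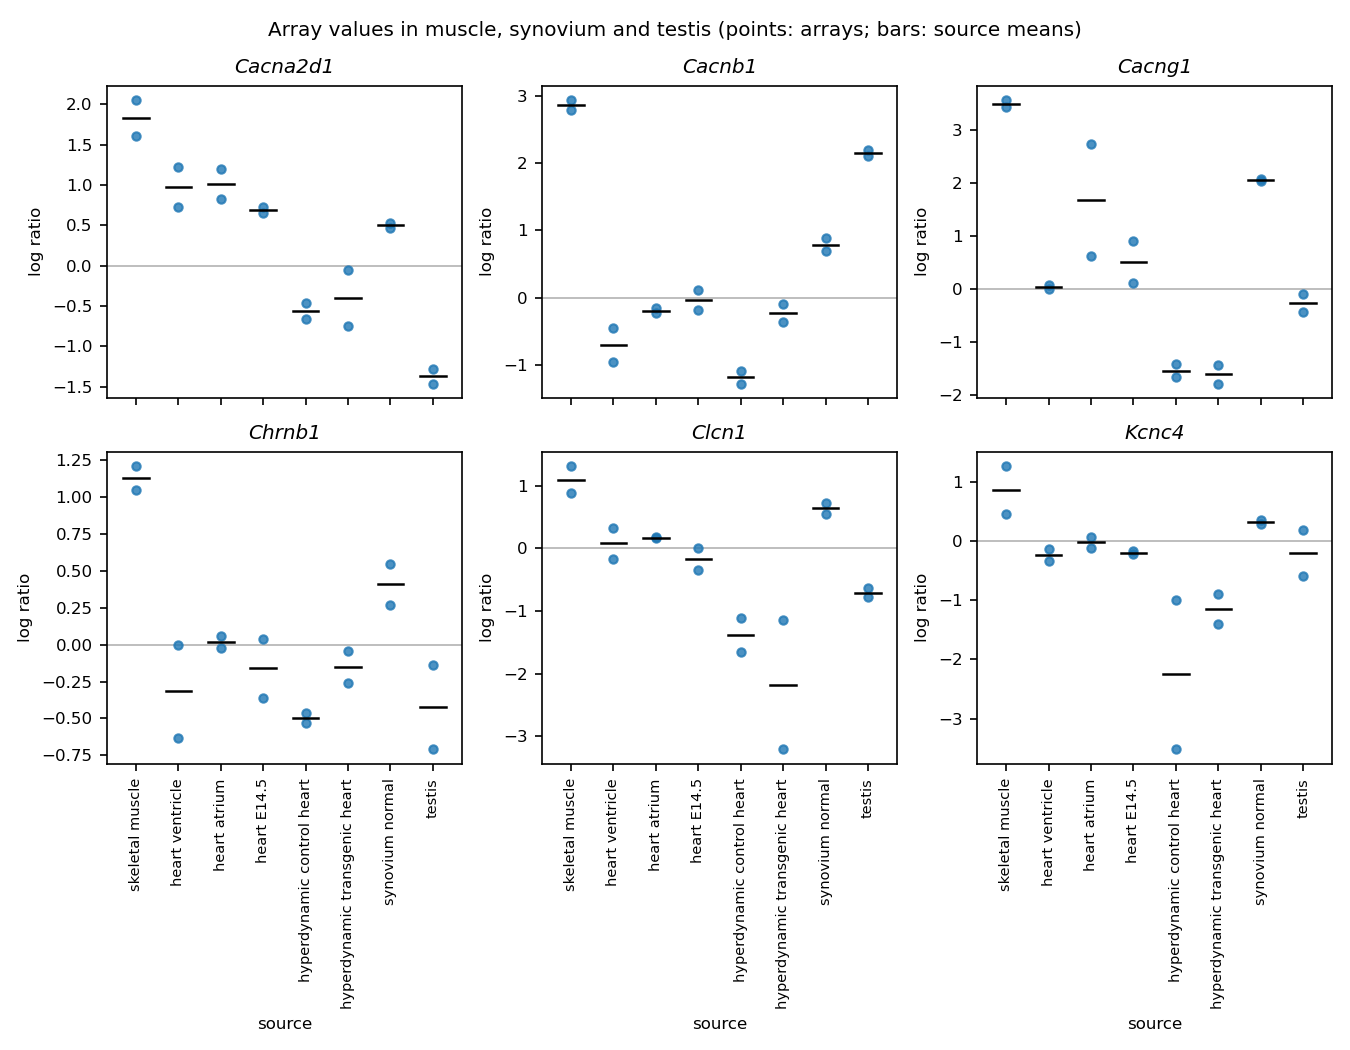
Log ratio (likely log2) of 6 members on each array (points) of skeletal muscle, heart sources, normal synovium and testis, with source means as bars. Skeletal muscle is the highest source shown for all 6, and both hyperdynamic heart sources are the lowest for Cacng1, Clcn1 and Kcnc4.

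Upstream sequence is shown for 4 muscle genes. Of these, Cacnb1, Chrnb1 and Clcn1 were highest in skeletal muscle among the muscle sources and Chrng was not. The choice leaves out other members highest there, such as Cacna2d1, Cacng1 and Kcnc4. The sequences are the 250 bases before the start listed for each gene in a RefSeq promoter table (build GRCm38.p6; for Cacnb1 the more upstream of 2), 5′ to 3′ on the gene's strand. RefSeq's gene spans reach further upstream for 3 of the 4: the windows of Clcn1 and Cacnb1 lie wholly inside the gene's span and that of Chrnb1 overlaps its edge, so other starts of these genes may lie elsewhere. Capitals mark the E-boxes CAGCTG and CACCTG, which myogenic factors can bind (in either orientation), and matches to the MEF2 consensus.
Cacnb1 (chr11:98022628-98022877, minus strand): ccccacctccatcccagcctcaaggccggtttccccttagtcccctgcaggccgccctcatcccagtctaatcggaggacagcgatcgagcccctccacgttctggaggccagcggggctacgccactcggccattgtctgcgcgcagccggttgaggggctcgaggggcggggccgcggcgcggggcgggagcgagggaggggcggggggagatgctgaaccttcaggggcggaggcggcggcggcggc
Chrnb1 (chr11:69795938-69796187, minus strand): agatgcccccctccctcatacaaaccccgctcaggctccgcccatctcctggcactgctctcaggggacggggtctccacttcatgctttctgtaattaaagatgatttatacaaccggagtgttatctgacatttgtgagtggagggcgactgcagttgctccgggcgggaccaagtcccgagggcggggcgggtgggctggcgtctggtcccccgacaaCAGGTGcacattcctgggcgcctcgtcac
Clcn1 (chr6:42286435-42286684, plus strand): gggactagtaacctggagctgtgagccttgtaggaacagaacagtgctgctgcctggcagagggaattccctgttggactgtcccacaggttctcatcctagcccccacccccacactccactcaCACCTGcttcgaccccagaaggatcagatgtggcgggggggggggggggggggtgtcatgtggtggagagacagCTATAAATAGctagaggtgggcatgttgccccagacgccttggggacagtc
Chrng (chr1:87205561-87205810, plus strand): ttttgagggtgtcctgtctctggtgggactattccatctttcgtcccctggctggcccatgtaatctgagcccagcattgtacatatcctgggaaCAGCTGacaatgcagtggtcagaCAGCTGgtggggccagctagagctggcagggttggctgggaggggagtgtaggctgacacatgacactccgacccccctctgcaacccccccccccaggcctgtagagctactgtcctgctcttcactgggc

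Chrnb1 held 1 CACCTG match, on the opposite strand, and Clcn1 held 1 CACCTG and 1 MEF2 match. Chrng held 2 CAGCTG matches and Cacnb1 held none of these letters in this window. Of the genes left out, Cacna2d1 held none, Kcnc4 held 1 CACCTG match and Cacng1 had no promoter entry. Over 32851 promoters of the same length, 13.0% held CAGCTG, 17.2% held CACCTG and 2.9% a MEF2 match. The GC content was 73.2% for Cacnb1, 60.4% for Chrnb1, 60% for Clcn1 and 59.2% for Chrng, against a median of 52.4%, with 26, 14, 3 and 2 CpG dinucleotides. A match is a description of the letters, not of a site in use. RefSeq promoter entries were matched for 24 of the 32 genes.

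Atrium and ventricle differed in 1 member, which was higher in atrium (3.3%), and in no lower one, against 5.41% and 3.06% of all probes, with 2 members at an unadjusted limma p under 0.05. Cacng1 stood at 0.62 and 2.74 in atrium against -0.00 and 0.08 (1.64 ± 0.50, adjusted p = 0.024). The call rested on the second atrial array, without which the difference was 0.58, and ended without either ventricle array (1.60 and 1.68, adjusted p = 0.097 and 0.15). Under quantile normalization, which moved the median of all probes by -0.11, it was lost, and the share of higher ones among all calls was 45% against 63.9% as deposited. The skeletal muscle markers stood at 0.90 in atrium and 0.52 in ventricle, and 2 of 6 heart muscle markers were higher in atrium. The part of these in the level of Cacng1 was not tested. Of the partner genes, Slc12a7 was lower in atrium (-0.89 ± 0.20) and Itpr3 higher (0.74 ± 0.23).

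The heart at E14.5 had 3 members higher and 1 lower than ventricle (10% and 3.3%), against 19.8% and 2.1% of all probes. Centring moved the median of all probes by -0.11 and left 1 higher and 1 lower, against 15.3% and 2.94%. Quantile normalization moved it by -0.23 and gave 1 higher and 9 lower members, against 1521 higher and 1638 lower of all 8638 probes. Higher ones were then 48.1% of all calls, against 90.4% as deposited. After centring, Trpc4ap was higher (-0.03 and 0.24 against -0.27 and -0.75 on the arrays, 0.50 ± 0.19, limma adjusted p = 0.049) and Htra3 lower (-0.04 and 0.25 against 1.55 and 1.07, -1.31 ± 0.37, adjusted p = 0.0058). Clcn7 (0.47) and Grin3b (0.33) were called higher only as deposited. As deposited, Trpc4ap was lost without the second E14.5 or the second ventricle array (0.48 and 0.37), Htra3 without the first E14.5 or the first ventricle array (-1.06 and -0.97), Grin3b without the second E14.5 or the second ventricle array (0.25 and 0.20) and Clcn7 without either E14.5 array or the second ventricle array (0.66, 0.49 and 0.44). The count was 2 without the first E14.5 array and 1 without the second E14.5 or the second ventricle array. Heart-expressed channel genes among the members did not pass: Kcnh2, at 0.59 and 1.07 against 0.55 and 0.06, Cacnb2, a cardiac calcium channel beta subunit, at -0.36 and -0.40 against -0.10 and -0.31, and Cacna2d1, at 0.73 and 0.65 against 1.22 and 0.73. Cacnb2 was called under quantile normalization (adjusted p = 1.5e-05). Atp2a2 was lower at E14.5 (-1.94 after centring) and Slc8a1 higher (1.77), 1 each way of 10 pump genes, and Ddc (2.22), Ank3 (0.64), Lin7c (0.60) and Clic1 (0.47) were called higher as deposited. Beside this, 3 of 6 heart muscle markers and the smooth muscle marker (1.94 as deposited) were higher at E14.5, and their part was not tested.

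The hyperdynamic transgenic heart was compared with its control heart (2 against 2 arrays), both on arrays of low medians. Of the 30 genes, 4 were higher and none lower (13.3% and 0%), against 8.8% and 2.67% of all probes, with 8 members at an unadjusted limma p under 0.05. Centring moved the median of all probes by -0.18 and gave 3 higher and 4 lower, against 5.04% and 7.55%. Quantile normalization gave none, against 90 higher and 50 lower of all 8638 probes. Higher ones were 76.7% of all calls as deposited and 40.0% after centring. Grin2d stood at -0.16 and 0.10 in the transgenic and at -1.63 and -1.31 in the control heart. Its difference after centring was 1.26 ± 0.27 (limma adjusted p = 0.00052), and it was the member whose deposited call held without any one array. In a fit to these 4 arrays alone it was not called, nor was any other member. Cacna1a stood at 0.12 and 0.57 against -1.11 and -0.70 (1.07 ± 0.29 after centring, adjusted p = 0.0069). Kcnc4 stood at -1.41 and -0.89 against -3.52 and -0.99. Without the first control array its difference changed sign, to -0.17, and the number of called members was 1. As deposited, Cacna1a and Cacnb1 (0.96 ± 0.30) were lost without the first control array (1.05 and 0.86) or the second transgenic array (1.03 and 0.82), and Kcnc4 also without the latter (0.84), where 2 members were called. Within the AC and AF lots, with 1 array a side, the deposited differences were 1.46 and 1.41 for Grin2d, 1.23 and 1.27 for Cacna1a, 0.92 and 0.99 for Cacnb1, and 2.10 and 0.09 for Kcnc4. Lower after centring were Clcn1 (-0.96), Grin3b (-0.61), Htra3 (-1.05) and Trpc2 (-0.57), the second probe of Trpc2 differing by 0.05 as deposited. Of the partner genes, Atp2a2 was lower (-1.2 after centring) and Slc32a1 (0.61), Dlg4 (0.58) and P2rx3 (0.40) were called higher as deposited. Beside this, 2 of 6 heart muscle markers, 1 of 4 skeletal muscle markers and 1 of 3 macrophage markers were higher in the transgenic heart, and their part was not tested.

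Olfactory epithelium, which carries the odour-sensing neurons, had 1 member higher than nasal respiratory mucosa (3.3%) and none lower (2 against 2 arrays), against 1.75% and 0.208% of all probes, with 5 members at an unadjusted limma p under 0.05. Grin3b stood at -0.08 and -0.07 against -0.75 and -0.76 (0.68 ± 0.17, adjusted p = 0.0099). Its difference was 0.67 or 0.68 without any one array, but none of the 4 left the call (adjusted p 0.12 to 0.13), and the count of members was then 0. Kcnc4 had its highest level of all sources here. It stood at 1.81 and 1.74 against 0.82 and 0.89 and did not pass as deposited (limma adjusted p = 0.17), though it did under quantile normalization (adjusted p = 0.006). With that normalization 4 members were higher and 0 lower, against 601 and 158 of all 8638 probes. Higher ones were then 79.2% of all calls, against 89.3% as deposited. Trpc2, a TRP channel known from the vomeronasal organ, did not stand out in the epithelium. Its highest level was in adult liver (0.75), and its 2 probes correlated at r = -0.36. Homer2 (1.14 ± 0.27) and Gabarapl1 (1.05 ± 0.20) were higher, 2 of 9 anchoring genes. Of the 7 neuron markers 2 were higher, and Omp was 0.82 higher without passing. Their part was not tested.

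Some members peaked outside nerve and muscle, and these levels are described without a test. In the 7 normal adult intestinal sources, Trpm4 ran from 1.2 to 2.33, with a median of 1.75, above the other 29 sources of the nervous tissue comparison, of which testis was highest (0.43). Pancreatic islets (0.60) and involuting mammary gland (0.54), which are not in that comparison, lay above testis and below each of these 7 intestinal sources. Duodenum (2.11 and 2.56) and ileum (2.09 and 2.49) were highest and did not differ beyond the spread of their arrays. Clcn2, a chloride channel of epithelia and other cells, ran from 1.08 to 1.78, and 6 of 7 intestinal sources were above testis (1.10), the highest of those 29. Kcnk5 ran from 0.74 to 1.99, with cecum and distal colon above thyroid (1.80) and the other 5 below it. Lowest of these 7 sources for Trpm4, Clcn2 and Kcnk5 was the second proximal jejunum source.

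Trpv4 was highest in kidney after folic acid injury (2.73 and 3.04), followed by adult kidney (2.00 and 2.38), thyroid (1.71 and 2.05) and kidney at E18.5 (1.53). Adult kidney and thyroid overlapped in their arrays. Cacna1a in testis (2.79 and 3.36) lay above its 2 cerebellar arrays. Kcnh2 and Kcnq5 were highest in blood mononuclear cells, at 2.32 and 1.33 and at 2.31 and 1.13, and the same array was the higher one for both. Trpv2, Kcnn1 and Clcn3, a chloride/proton exchanger, were highest in stimulated lymph node (1.35, 1.15 and 1.00). The 3 cerebellar neuron markers were highest there too (0.85), followed by spleen (0.69) and adult liver (0.59). Of the variance of these members, 54.2%, 51.3% and 66.7% lay between sources, against a median of 81.8% over the members. What these probes share was not tested. Chrnb1 was highest in colon tumour Col43 (1.54), followed by duodenal tumour Duo59 (1.41) and colon tumours Col2 (1.39) and Col72 (1.36), while colon tumour Col1 stood at 0.56.

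**Figure D5:**
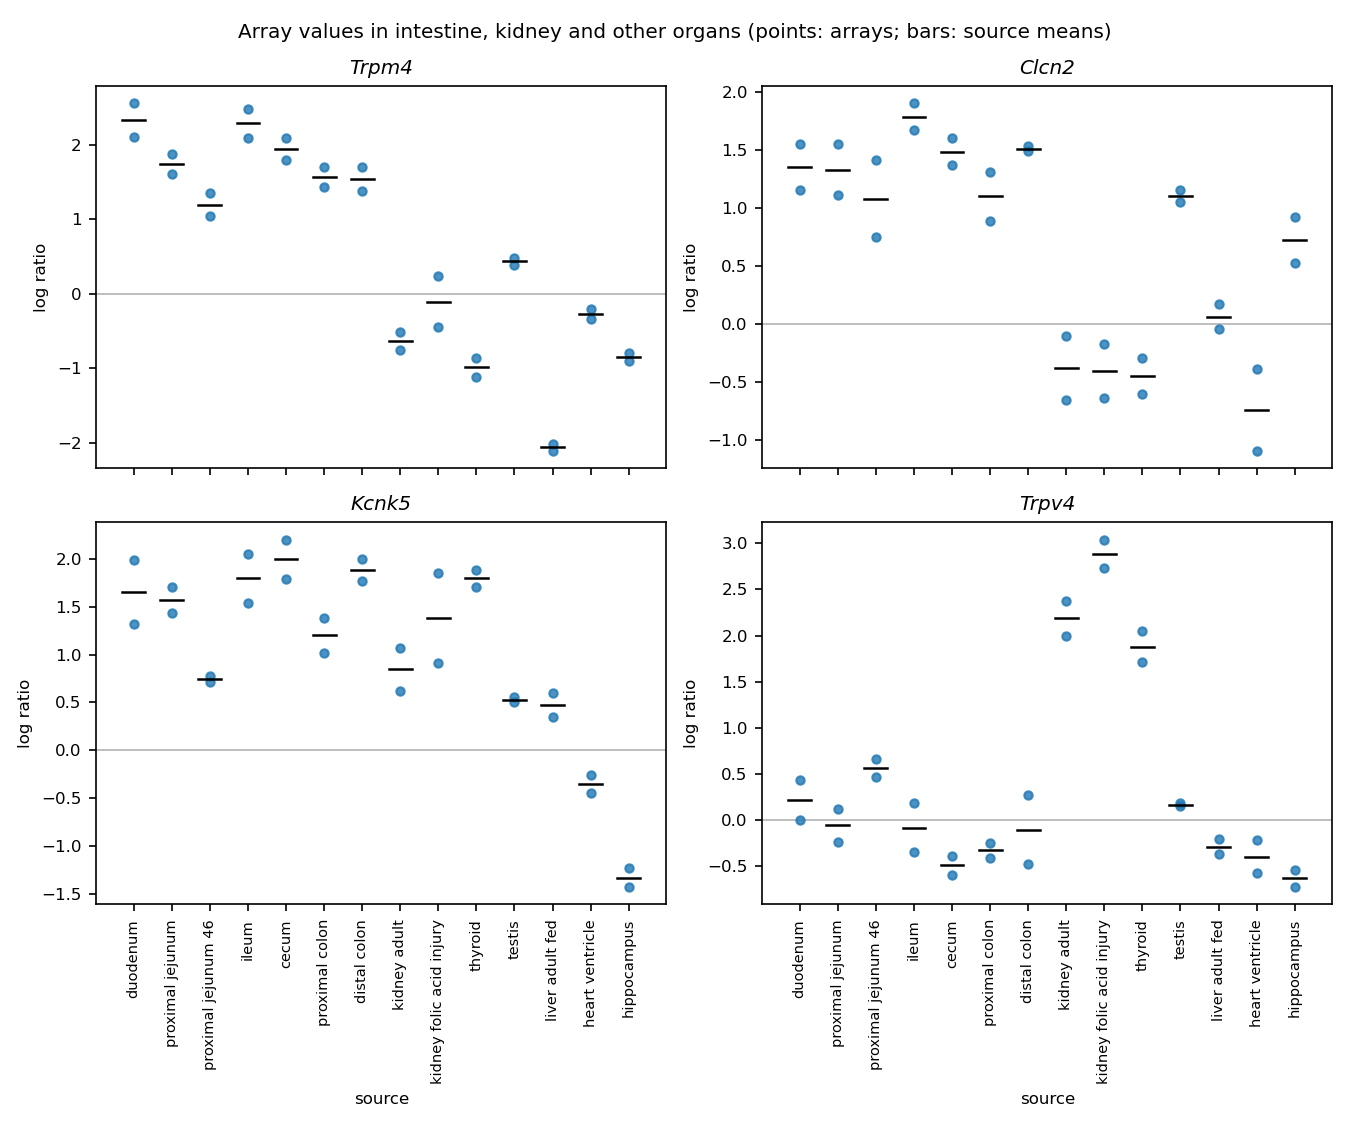
Log ratio (likely log2) of Trpm4, Clcn2, Kcnk5 and Trpv4 on each array (points) of 7 intestinal sources, kidney, thyroid and other organs, with source means as bars. Trpm4 is above 1 on every intestinal array, and Trpv4 is highest in both kidney sources and thyroid.

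The members did not vary as 1 group. Over the 88 sources, which share arrays between genes, the 435 pairs of members had a median correlation of 0.15. Of these pairs, 11 were above 0.7, and 8 after centring the array medians. No such values over all probes are given here, so whether the members differ from other genes in this is not known. The closest pair was Clcn3 and Kcnn1 (r = 0.89, and 0.93 after centring the array medians), and Trpv2 and Trpc2 joined them (r = 0.76 to 0.83 with each). On single arrays the values of Trpv2, Kcnn1 and Clcn3 also went together, as on both spleen arrays (1.44 and 0.71, 1.37 and 0.26, 1.00 and 0.72). The second spleen array held only 5495 values. Cacnb2 and Scn3b formed a further pair (r = 0.84), and so did Kcnh2 and Kcnq5 (r = 0.74). Cacna2d1, Cacna1g and Clcn1 were linked at r = 0.72 to 0.75. The lowest correlation was that of Cacna2d1 with Htra2 (r = -0.69).

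For 6 members a second probe was present, and the probes did not always go together. Over the arrays with both, they correlated at r = 0.96 for Grina and 0.67 for Chrng, but at 0.10 for Cacnb1, -0.19 for Htra2, -0.36 for Trpc2 and, over 16 arrays, -0.22 for Clcn7. The second probe of Chrng was higher in the transgenic heart (1.58 ± 0.35, limma adjusted p = 0.00082), where the first differed by 0.16 ± 0.34, and lower in dorsal root ganglion (-1.03 ± 0.35, adjusted p = 0.027), where the first differed by -0.33 ± 0.34. The second probe of Trpc2 was higher in perinatal brain (1.04 ± 0.17, adjusted p = 1.5e-07). Which probe follows the gene better was not tested.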

How the data were processed

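RNA of mouse tissue sources and a universal reference RNA were compared on 2-colour spotted arrays. The deposited values are log2 ratios in the likely reading, and no source used here states their base, direction, dyes, scanner, background correction or normalization. The authors deposited them centred per probe. Each array gave 5137 to 8658 values (median 8638), and replicate arrays correlated at r = 0.381 to 0.987 (median 0.869). No 2 arrays held identical values.

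Probes were named through the platform annotation: 7540 had 1 symbol, 14 several and 1180 none. No symbol was updated through the RefSeq table of genes. The probe with most values, then the lowest number, stood for a gene. The members and lists were chosen with earlier results of these data known.

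Values were tested as deposited with limma 3.58.1 in R 4.3.3, moderated tests on a one-way fit. For 9 comparisons a mean was fitted for each source over all 171 arrays, sharing 1 estimate of spread, and for 2 the source means were the units. Probes with values on at least 80% of units and at least 1 in each source were tested, with Benjamini-Hochberg adjustment over all of them and a threshold of 0.05. The steps were tested on simulated data. Letters and signs in the titles were taken as 3 array lots (AC 69, AF 86 and # 16 arrays), used as a block and singly. No label calls these groups lots, and what they stand for is not given. Where an alternative left a lone array, it was taken to vary as the rest do. Differences are given after centring array medians wherever centring shifted the all-probe median by more than 0.1.

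For each comparison up to 15 called members each way were named, with up to 6 members of the widest span per family and up to 4 partner genes per list. The lists were markers of neurons, myelin, astrocytes, macrophages and microglia, sensory, cerebellar, striatal and olfactory neurons, skeletal, heart and smooth muscle, blood and endothelium, and 5 lists of partner genes. Levels in intestine, kidney and blood and the correlations between members were described after their values were seen. Alternatives were centring, quantile normalization, lots, group weights, only probes complete on all units, the mean of a gene's probes, fits to just the arrays compared, and omission of 1 array or source. The software was matplotlib 3.10.9, numpy 2.4.6 and pandas 2.3.3 under Python 3.11.15.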

Additional observations from a re-analysis of the deposited data

Results flagged for a closer look

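Of 60 groups of 4 to 10 source means tested for a sample far from the others, 3 had one, and chance alone gives about 1 in 20. Cacna1a in cerebellum (2.25) was far above the next nervous region, olfactory cortex (1.2). Grin3b in cerebellum (0.85) was far above the next, hippocampus (-0.05). Chrng in the hyperdynamic control heart (-1.37) was far below the next striated muscle source, skeletal muscle (0.05). Both arrays of that heart have low medians (-0.78 and -0.45), and their part in this level was not tested.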

How the results depend on the processing

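Counts of called members moved by over 1.5 times as follows. The cause was not tested, except that probes complete on every array leave fewer members to test. These are counts of members alone, and calls over all probes also moved between settings. Calls over all probes are given above for centring. They are also given for quantile normalization in ganglion, the heart at E14.5, the hyperdynamic heart and olfactory epithelium. For the other counts below they are not given. Whether the members moved more than other probes was not tested. After centring, striated muscle gave 1 (2 as deposited), the heart at E14.5 2 (4) and the hyperdynamic heart 7 (4). Under quantile normalization, striated muscle gave 1, the striatal regions 4 (2), dorsal root ganglion 1 (6), perinatal brain 17 (10), atrium 0 (1), the heart at E14.5 10, the hyperdynamic heart 0 and olfactory epithelium 4 (1). With probes complete on every array, only 13 of the 30 members were tested in the comparisons of arrays. Cerebellum then gave 7 (13), the striatal regions 1, ganglion 1, perinatal brain 3, skeletal muscle 3 (7), atrium 0, the heart at E14.5 2 and the hyperdynamic heart 2, and all 34 single-gene results that could be retested kept their call. Fits on only the arrays compared gave 0 for ganglion, atrium and the hyperdynamic heart, 18 for perinatal brain and 7 for olfactory epithelium. In the AC lot alone, nervous tissue gave 4 (14), cerebellum 22, the striatal regions 4, perinatal brain 25 and the hyperdynamic heart 7, and in the AF lot alone the striatal regions and the hyperdynamic heart gave 0. Leaving out 1 source or array gave 11 to 15 for nervous tissue, 0 to 3 for striated muscle, 8 to 14 for cerebellum, 0 to 4 for the striatal regions, 1 to 7 for ganglion, 8 to 10 for perinatal brain, 3 to 10 for skeletal muscle, 0 to 1 for atrium, 1 to 5 for the heart at E14.5, 1 to 5 for the hyperdynamic heart and 0 for olfactory epithelium. The difference of Kcnc4 in the hyperdynamic heart ran from -0.17 to 2.36. Of 64 results on single genes, 17 were called under every alternative run and 28 in every fit that left out a source or array. With lot as a block, 47 of 48 kept their call, the exception being Kcnq5 in cerebellum. Only in the cerebellum and perinatal brain comparisons are the lots unbalanced between the sides. Elsewhere both sides are of the same lot or hold both lots equally. There the block could hardly shift a difference, so a kept call says little about lot. No paired analysis was possible because the replicate numbers only count the arrays of a source and tie no array to one of another source. Lots do join arrays across sources, as in both hyperdynamic groups, and the fit with lot as a block is the matched fit run here. With 2 arrays for most sources, few arrays limit what can be told apart, and signal over background is not known.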
